A study of Caenorhabditis elegans with 16 samples.

Results

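The 25 long noncoding RNAs described here are the rows of the expression table that the file classes as noncoding RNA, that are at least 200 bases long, that do not carry a piRNA name beginning 21ur-, and that averaged at least 5 FPKM (fragments per kilobase of gene length, scaled to library size) in at least 1 of 4 groups of worms. They were 25 of 1570 rows that met the first 3 criteria, in a table of 46589 genes. They were thus chosen by their measured FPKM in these same groups, and being well expressed somewhere is no result about them.

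The worms were wild-type N2 Caenorhabditis elegans, kept at 20 °C on Nematode Growth Medium (NGM). EMBRYO TM worms spent 24 h as bleach-released embryos in S Medium with 1.25 μg/ml tunicamycin (TM), a blocker of N-linked glycosylation that causes endoplasmic reticulum stress, and EMBRYO CNT worms were the embryo-stage controls. L4 TM worms were given 1.25 μg/ml tunicamycin in S Medium for 24 h from the last larval stage (L4), and L4 CNT worms were their controls. The medium of the controls is not stated. The study describes all 4 groups as Day 1 adults, and they were taken whole. The names deposited with the group means read L1 for the embryo-stage groups and D1 for the L4-stage groups. What L1 stands for is not stated. The labels give a return to NGM plates after either treatment, while the study describes the L4 treatment as running up to Day 1, so the interval between L4 treatment and collection is not settled by the sources used here. There were 4 libraries a group, each from the population of a single plate, and the RNA was purified on poly-T beads, so only noncoding RNAs that this capture retains could be counted well.

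A long noncoding RNA is a transcript that is not translated into a known protein. In the nematode such RNAs include intergenic transcripts (linc), RNAs antisense to coding genes, and a few with a studied role. tts-1 is abundant in long-lived daf-2 and clk-1 mutants, associates with ribosomes there and is needed for their full lifespan. rncs-1 is a highly structured RNA of the intestine and epidermis that rises in starvation and inhibits Dicer, the enzyme that makes small RNAs.

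Of the 1570 candidates, 634 had no read in any of 16 libraries and 52 averaged at least 1 FPKM. The 25 had a median length of 711 bases, against 236 bases for the other candidates. They lay on chromosomes X (6), II (6), V (5), I (3), III (3) and IV (2). The genome build of the table was not given in the sources used here, and 24 of the 25 positions were identical to those of build WBcel235, whose annotation calls 19 of them ncRNA, 5 lincRNA and 1 antisense RNA. The exception was C30E1.9, on the plus strand of chromosome X from 16929914 to 16930831, whose listed length of 1706 bases exceeds that span. Not every row is a typical long noncoding RNA. rpr-1 is the RNA subunit of ribonuclease P and srpr-2.2 a signal recognition particle RNA, structural RNAs that normally lack a poly(A) tail, and 4 other rows lie in stretches annotated as the 3′ untranslated region of a coding gene.

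At the edge of the 5 FPKM rule, the highest group mean was 5.06 FPKM for linc-8, 5.39 for linc-11 and 6.01 for F41E7.20, just inside. It was 4.92 FPKM for C01B12.9, 4.60 for linc-20 and 3.81 for linc-96, just outside. Of the 25, 15 reached 5 FPKM in all 4 groups and 5 did so in a single group.

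**Figure D1:**
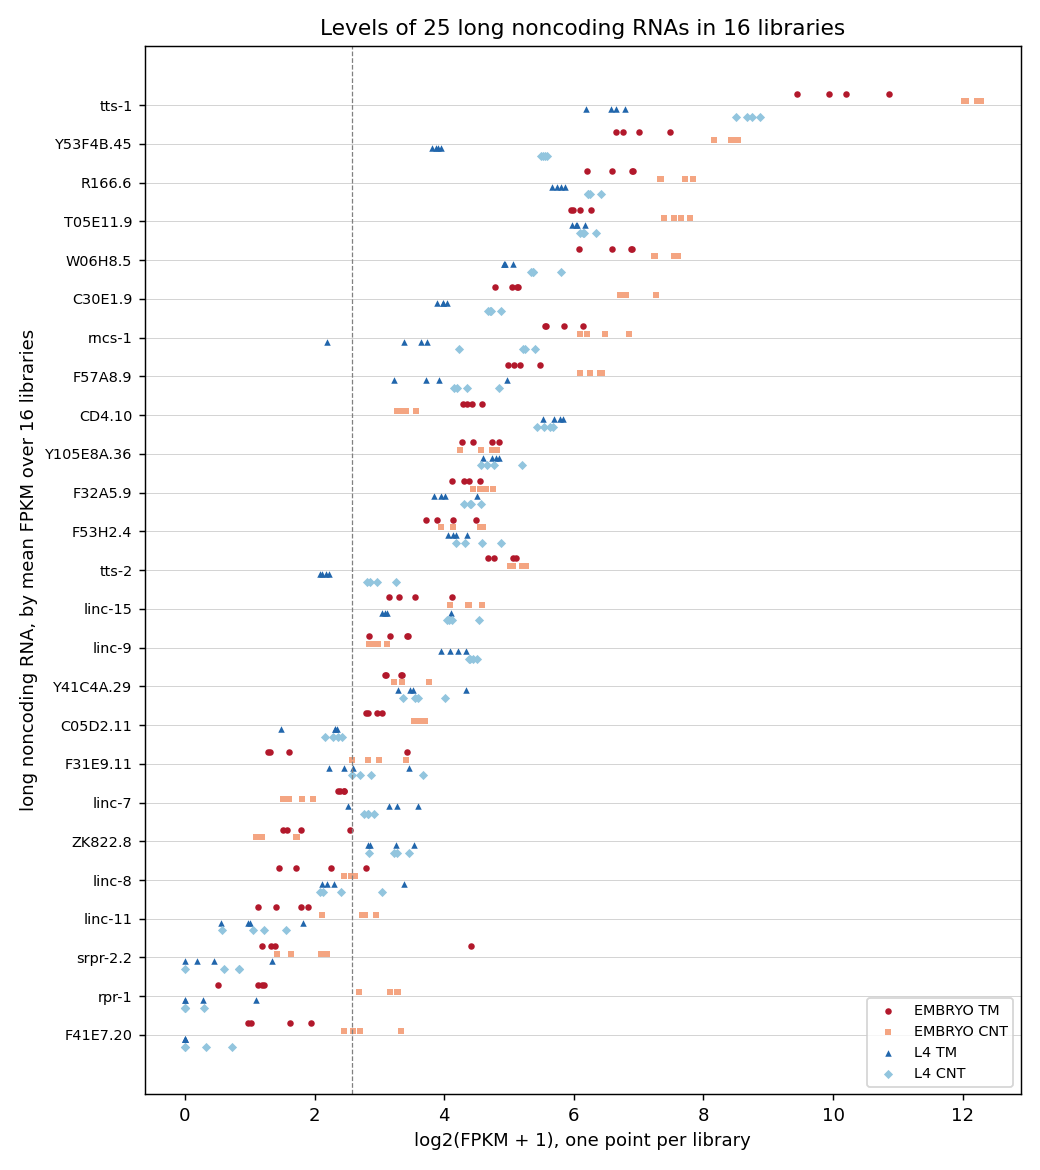
Each point is the level of a long noncoding RNA in a library, as log2(FPKM + 1) on the horizontal axis, with the 25 RNAs ordered down the page by their mean over 16 libraries and the dashed line at 5 FPKM. tts-1 had the highest mean over the 16 libraries, and ran from 71.8 FPKM in an L4 TM library to 4963 FPKM in an EMBRYO CNT library. For 15 of the 25 the EMBRYO CNT mean was the highest. These include rpr-1, F41E7.20 and linc-11, which met the 5 FPKM rule through that group alone. The share among all genes was not counted.

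Libraries held 12361026 to 47193068 reads as recovered from the FPKM steps. L4 TM replicate 4 stood apart, with 47193068 reads but 15377 genes detected, against 17539 to 21833 in the other libraries. Genes seen by exactly 1 read made up 0.702% of those it detected, and 8.97% to 10.9% in the remaining 15 libraries. It was the highest of its group for 15 of the 25 RNAs, L4 CNT replicate 2 for 16 and EMBRYO TM replicate 4 for 10. Among 9302 other genes averaging at least 5 FPKM those shares were 44.3%, 45.9% and 44.5%. EMBRYO CNT replicate 4 was the lowest of its group for 15 of the 25, against 13.4% of those other genes. Without it, EMBRYO TM against EMBRYO CNT gave 5 RNAs called lower and 0 higher, the control comparison 10 higher and 3 lower, and the interaction 2 lower, by the rule given below. The endoplasmic reticulum chaperone hsp-4, a standard readout of tunicamycin, averaged 144 ± 8.02 FPKM in EMBRYO TM and 75.1 ± 8.11 in EMBRYO CNT, and 192 ± 15.5 in L4 TM and 130 ± 4.13 in L4 CNT (SD, n = 4 each). Both hsp-4 differences had an adjusted p under 0.05 by limma, and adjusted p alone put 3 of 8 unfolded protein response genes above and 3 below their control after embryo treatment, with 3 above and 2 below after L4 treatment.

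Summed marker levels also differed between the groups. Sperm genes (37 listed, msp-32 at 0) summed to 2441 to 2728 FPKM in EMBRYO TM against 782 to 889 in EMBRYO CNT, and 636 to 817 in L4 TM against 602 to 729 in L4 CNT. The 3 muscle genes unc-54, myo-3 and unc-15 summed to 374 to 1164 FPKM in EMBRYO TM against 1971 to 2409 in EMBRYO CNT, and to 143 to 159 in L4 TM against 247 to 281 in L4 CNT. Moulting genes (9 listed) summed to 114 to 165 FPKM in EMBRYO TM against 116 to 128 in EMBRYO CNT, and 31.3 to 33.6 in L4 TM against 50.4 to 56.6 in L4 CNT. The adult collagen col-19 and 3 yolk genes summed to 6973 to 21589 FPKM in EMBRYO TM against 4794 to 6534 in EMBRYO CNT, and to 11082 to 15281 in L4 TM against 17132 to 21222 in L4 CNT. The 5 intestine genes summed to 621 to 937 FPKM in EMBRYO TM against 393 to 422 in EMBRYO CNT, and to 490 to 745 in L4 TM against 605 to 764 in L4 CNT. Oocyte genes (12 listed) summed to 2995 to 6068 FPKM in EMBRYO TM against 3068 to 4361 in EMBRYO CNT, and to 5397 to 6508 in L4 TM against 4684 to 5549 in L4 CNT. The 5 neuron genes summed to 152 to 203 FPKM in EMBRYO TM against 202 to 240 in EMBRYO CNT, and to 182 to 270 in L4 TM against 212 to 268 in L4 CNT. Early embryo genes (9 listed, med-1 at 0) stayed at or under 6.44 FPKM in every library. The part of these shifts in the noncoding RNA results below was not tested, and in whole worms fewer cells of a type and less RNA per cell cannot be told apart.

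The most abundant of the 25 was tts-1 (F09E10.11), 711 bases on the minus strand of chromosome X from 1504131 to 1504841, with no coding gene overlapping it. It measured 1178, 975, 695 and 1863 FPKM in EMBRYO TM, against 4221, 4963, 4776 and 4148 FPKM in EMBRYO CNT. In the later-treated worms it measured 99.1, 109, 93.7 and 71.8 FPKM in L4 TM, against 407, 469, 431 and 361 FPKM in L4 CNT. The 4 groups did not overlap one another, and L4 TM had the lowest mean of them, followed upwards by L4 CNT, EMBRYO TM and EMBRYO CNT. On the log2(FPKM + 1) scale tts-1 fell by 2.03 in EMBRYO TM (SE 0.26, limma adjusted p 0.000227) and by 2.16 in L4 TM (SE 0.13, limma adjusted p 1.42e-05). The difference between the 2 stages in this drop was 0.13, with a 95% interval of -0.54 to 0.79 (limma adjusted p 0.81), so a difference of up to that size in either direction is not excluded by these libraries.

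By FPKM, tts-1 ranked 103 among all rows of the table in EMBRYO TM and 6 in EMBRYO CNT, and 1462 in L4 TM and 249 in L4 CNT. It took 0.0876% of reads on average in EMBRYO TM and 0.366% in EMBRYO CNT, and 0.00627% in L4 TM and 0.0289% in L4 CNT. The other 24 RNAs together took 0.0873% in EMBRYO TM and 0.205% in EMBRYO CNT, and 0.0377% in L4 TM and 0.0550% in L4 CNT.

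For the 2 tunicamycin comparisons and the comparison of controls, a test is given for the RNAs that averaged at least 5 FPKM over the 8 libraries compared, since those meet the 5 FPKM rule whichever group is higher. An RNA is called when its log2 difference is beyond 1 and its limma adjusted p, over all genes tested, is under 0.05. In EMBRYO TM against EMBRYO CNT, 18 of the 25 could be tested. Of these, 5 were called lower and 1 higher, and 12 were not called. Among all 9823 genes at that level, 7.09% were called lower and 6% higher. The median log2 difference was -0.76 over the 18 RNAs and 0.07 over the 9823 genes. By adjusted p alone 10 were lower and 1 higher (24.5% and 32% of all genes at that level), and the groups did not overlap for 8 lower and 1 higher (22.6% and 29.5%).

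The RNAs called lower in EMBRYO TM were tts-1, C30E1.9, T05E11.9, Y53F4B.45 and F57A8.9. C30E1.9 measured 33.8, 34.3, 32.0 and 26.5 FPKM in EMBRYO TM, against 153, 108, 111 and 104 in EMBRYO CNT. Its log2 difference was -1.87 (SE 0.14, limma adjusted p 9.09e-06), and every EMBRYO TM library was far under every EMBRYO CNT library. T05E11.9 (chromosome IV, 11106418 to 11107579, plus strand) measured 67.1, 62.7, 60.9 and 76.0 FPKM in EMBRYO TM, against 167, 220, 200 and 185 in EMBRYO CNT. Its log2 difference was -1.52 (SE 0.11, limma adjusted p 7.53e-06), again without overlap. Its nearest coding gene, pigk-1 at 506 bases, ran between 32.6 and 39.1 FPKM in EMBRYO TM and between 25.8 and 32.4 in EMBRYO CNT, so the lower level did not extend to that neighbour.

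Y53F4B.45 (chromosome II, 15042805 to 15044011, minus strand) had the second highest mean of the 25 over all 16 libraries, and in each embryo-stage group, but the fifth highest in L4 CNT. It measured 127, 107, 99.9 and 177 FPKM in EMBRYO TM, against 287, 342, 369 and 363 in EMBRYO CNT, a log2 difference of -1.44 (SE 0.18, limma adjusted p 0.000178). It lies within the span of trip-4 on the other strand and shares no exonic base with it. trip-4 itself differed by -0.25 (SE 0.09, limma adjusted p 0.0387) in the same libraries, a smaller value than that of the RNA inside it. F57A8.9 (222 bases, chromosome V, 10048167 to 10048388, minus strand) measured 30.5, 43.4, 32.6 and 34.9 FPKM in EMBRYO TM, against 84.1, 85.7, 74.9 and 67.2 in EMBRYO CNT, with no overlap. Its log2 difference was -1.12 (SE 0.12, limma adjusted p 9.84e-05), and it rested on 90 to 143 reads a library in EMBRYO TM and 240 to 358 in EMBRYO CNT. F57A8.9 lies in the annotated 3′ untranslated region of F57A8.1 on the opposite strand, a pair described below.

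CD4.10 (chromosome V, 5597061 to 5597450, minus strand) was the RNA called higher. It measured 18.6, 20.5, 19.4 and 22.9 FPKM in EMBRYO TM, against 9.67, 9.09, 10.8 and 8.61 in EMBRYO CNT. The groups did not overlap, and the log2 difference of 1.02 (SE 0.09, limma adjusted p 3.42e-05) was just past the threshold of 1. It was 0.96 without EMBRYO TM replicate 4, 0.97 without EMBRYO CNT replicate 4, and 1.00 (0.997 before rounding) without EMBRYO CNT replicate 2, each under that threshold with an adjusted p of at most 0.00128 over all alternatives run. Its nearest coding gene zhit-1, at 510 bases on the same strand, differed by 0.19 (SE 0.10, limma adjusted p 0.124).

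Other RNAs moved by less. C05D2.11, inside the span of the TGF-beta receptor gene daf-4 on the same strand, measured 5.92 to 7.22 FPKM in EMBRYO TM and 10.6 to 12.1 in EMBRYO CNT, a difference of -0.72 (limma adjusted p 0.000129). R166.6, W06H8.5 and linc-15 had log2 differences of -0.90, -0.80 and -0.82, with limma adjusted p of 0.00301, 0.00623 and 0.00782. rncs-1 measured 56.9, 46.7, 69.4 and 46.1 FPKM in EMBRYO TM, against 67.1, 72.3, 114 and 88.3 in EMBRYO CNT. Its log2 difference of -0.62 (SE 0.19, limma adjusted p 0.0209) was under the threshold of 1, and the groups overlapped. Its adjusted p was 0.0523 without EMBRYO CNT replicate 4 and 0.0568 without EMBRYO TM replicate 2. F31E9.11 had 9.80 FPKM in EMBRYO TM replicate 4 and 1.43 to 2.04 in the other EMBRYO TM libraries, against 4.99 to 9.64 in EMBRYO CNT. The lower 3 EMBRYO TM libraries held 6 to 8 reads each, and EMBRYO CNT 25 to 54. With all libraries its difference was -1.04 (limma adjusted p 0.0783), and without that library it was -1.55 (limma adjusted p 0.000187). The same library changed the call of linc-15, which was -1.02 without it.

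Of the 7 RNAs too low for a test here, rpr-1, F41E7.20 and linc-11 had lower values in EMBRYO TM, and linc-7 higher values. Their counts were small. rpr-1 had 2 to 5 reads in each EMBRYO TM library and 22 to 48 in each EMBRYO CNT library, a mean of 1.05 FPKM in EMBRYO TM and 7.73 in EMBRYO CNT. F41E7.20 had 3 to 10 reads in EMBRYO TM and 17 to 34 in EMBRYO CNT, 1.72 FPKM and 6.01 FPKM on average. linc-11 ran from 1.18 to 2.72 FPKM in EMBRYO TM and from 3.33 to 6.73 in EMBRYO CNT, and linc-7 from 4.16 to 4.51 in EMBRYO TM and from 1.84 to 2.92 in EMBRYO CNT. The EMBRYO CNT level is what brought rpr-1, F41E7.20 and linc-11 over the 5 FPKM rule, so these differences are a description. srpr-2.2 entered through a single library: it had 90 reads and 20.2 FPKM in EMBRYO TM replicate 1, and 6 to 7 reads and 1.27 to 1.61 FPKM in the other EMBRYO TM libraries, against 1.66 to 3.58 FPKM in EMBRYO CNT.

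**Figure D2:**
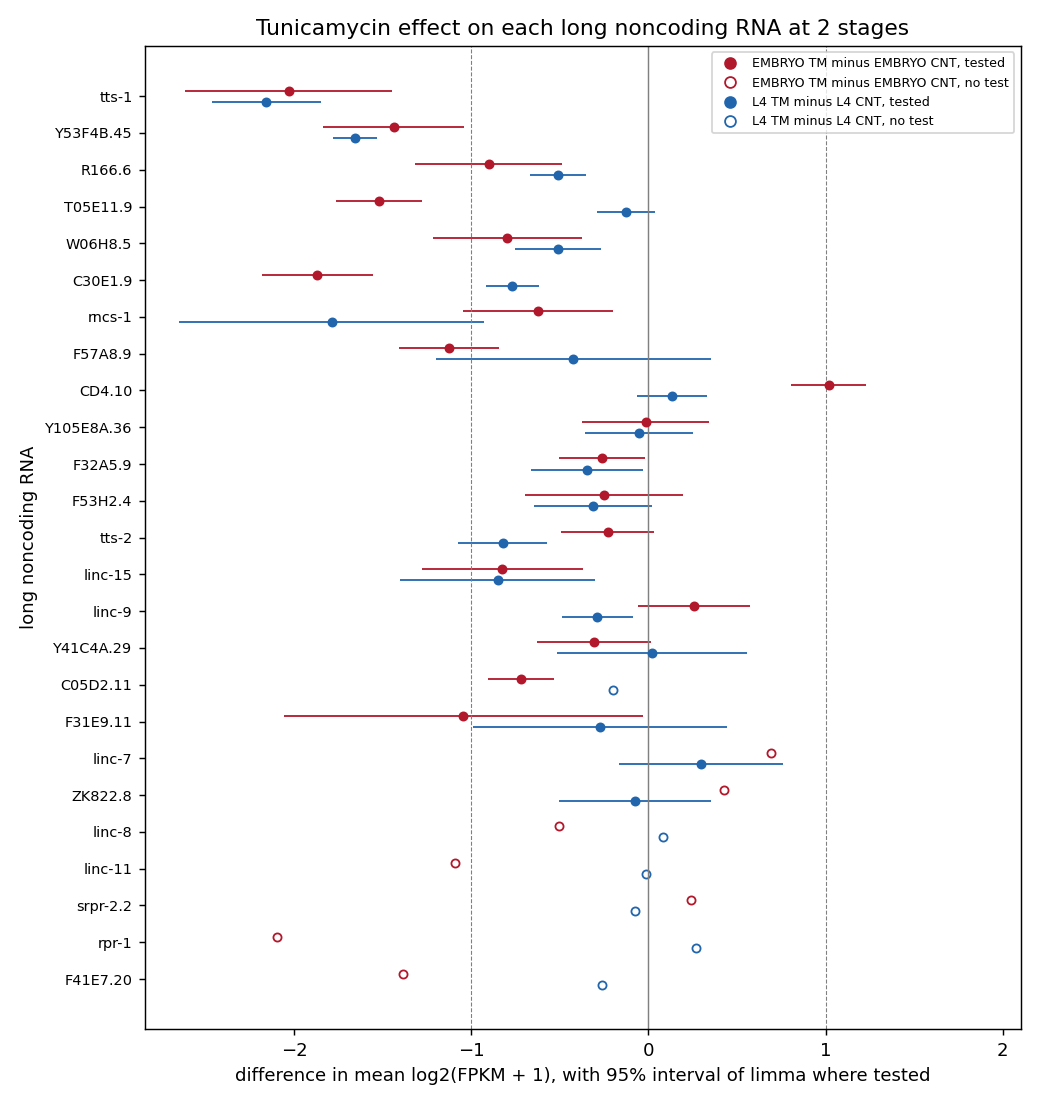
The log2 difference of each of the 25 RNAs between tunicamycin and control is plotted on the horizontal axis for the embryo stage (red) and the L4 stage (blue). Filled points were tested and have the 95% interval of limma, open points were too low for a test, and dashed lines mark -1 and 1. tts-1 and Y53F4B.45 lie beyond -1 at both stages, T05E11.9 and C30E1.9 at the embryo stage only, and CD4.10 just beyond 1 at the embryo stage.

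In L4 TM against L4 CNT, 19 of the 25 could be tested. Of these, 3 were called lower (tts-1, rncs-1 and Y53F4B.45) and 0 higher, against 3.33% lower and 0.503% higher among all 8548 genes at that level. No tested RNA was higher at an unadjusted limma p under 0.05 (0 of 19), and limma voom on the recovered reads also called 0. The median log2 difference was -0.35 over the 19 RNAs and 0.10 over the 8548 genes. By adjusted p alone 9 were lower and 0 higher (14.8% and 26.2% of all genes at that level), and the groups did not overlap for 8 lower and 0 higher (14.7% and 26.5%).

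Y53F4B.45 measured 13.1, 14.0, 13.7 and 14.4 FPKM in L4 TM, against 46.2, 44.2, 47.0 and 45.1 in L4 CNT. The libraries of each group lay close together, and the log2 difference was -1.66 (SE 0.05, limma adjusted p 5.82e-07). trip-4, which spans it, differed by -0.19 (SE 0.27, limma adjusted p 0.626). rncs-1 (802 bases, chromosome X, plus strand, 1011501 to 1012347) measured 12.4, 9.40, 11.5 and 3.58 FPKM in L4 TM, against 36.1, 17.8, 41.4 and 36.9 in L4 CNT. All L4 TM libraries were under all L4 CNT libraries, and the log2 difference was -1.79 with a wide error (SE 0.38, limma adjusted p 0.00687). The lowest library of each group was L4 TM replicate 4 and L4 CNT replicate 2, the same libraries in which many of the other RNAs were highest.

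Smaller L4 differences past adjusted p alone were C30E1.9 at -0.77, tts-2 at -0.82, linc-15 at -0.85, R166.6 at -0.51, W06H8.5 at -0.51 and linc-9 at -0.29. Those of linc-15 and linc-9 were near the limit: leaving out single libraries gave adjusted p up to 0.0673 for linc-15 (each library but L4 CNT replicates 1 and 4 and L4 TM replicate 4 ended it) and up to 0.0879 for linc-9 (each but L4 CNT replicate 2 and L4 TM replicates 3 and 4). tts-2, named like tts-1 as a transcribed telomere-like sequence, measured 3.24, 3.34, 3.52 and 3.67 FPKM in L4 TM, against 6.01, 8.57, 6.80 and 6.24 in L4 CNT, without overlap (SE 0.11, limma adjusted p 0.000755). linc-15 measured 7.70, 7.27, 7.48 and 16.2 FPKM in L4 TM, against 15.5, 22.1, 16.4 and 15.8 in L4 CNT. Its L4 TM replicate 4 alone reached the control level, and without that library its difference was -1.11 (limma adjusted p 0.000284). T05E11.9 measured 65.3, 64.4, 61.7 and 71.4 FPKM in L4 TM, against 69.7, 79.9, 70.7 and 67.4 in L4 CNT, a difference of -0.13 with a 95% interval of -0.29 to 0.04. CD4.10 measured 50.6, 55.7, 45.2 and 54.1 FPKM in L4 TM, against 48.9, 50.5, 41.9 and 45.7 in L4 CNT, a difference of 0.13 with an interval of -0.06 to 0.33. For both the groups overlapped.

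F41E7.20 had 0 reads in all 4 L4 TM libraries and 0 to 3 reads in L4 CNT. At 3 reads a library, counting error alone allows up to 0.637 to 0.730 FPKM in L4 TM replicates 1 to 3. The value for L4 TM replicate 4 is 0.270 FPKM, which assumes that its reads were counted like those of the other libraries. rpr-1 had 0 to 5 reads in L4 TM and 0 to 1 in L4 CNT. At this depth no difference in either could be detected at the L4 stage.

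The test of whether tunicamycin acted differently at the 2 stages used all 16 libraries and the 20 RNAs that averaged at least 5 FPKM over them. Embryo-treated worms also had longer from treatment to collection than L4-treated worms, so stage and that time cannot be told apart. A negative value means a larger drop, or a smaller rise, after embryo treatment. T05E11.9 at -1.39 (SE 0.13, limma adjusted p 9.81e-07) and C30E1.9 at -1.10 (SE 0.16, limma adjusted p 7.01e-05) were called lower, and 0 were called higher, against 2.97% lower and 7.55% higher among all 9322 genes at that level. In the positive direction, 4 RNAs had an unadjusted limma p under 0.05 and limma voom called 1, rncs-1. T05E11.9 was thus called lower after embryo treatment and differed between the stages. C30E1.9 fell at both stages by adjusted p and by more after embryo treatment. Its interaction was -0.97 without EMBRYO CNT replicate 1, the library in which it was highest, and -0.97 without the 3 libraries EMBRYO TM replicate 4, L4 TM replicate 4 and L4 CNT replicate 2.

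By adjusted p alone, CD4.10 at 0.88, tts-2 at 0.59 and linc-9 at 0.54 had positive interactions (limma adjusted p 8.67e-05, 0.0109 and 0.0254), against 16.5% of all genes at that level, and the 2 called RNAs were the only ones on the negative side, against 12.5%. The adjusted p was at most 0.00137 for CD4.10 over all alternatives run, 0.0997 for tts-2 with a pseudocount of 5, and for linc-9 0.0632 with limma voom and 0.0510 to 0.0559 without EMBRYO CNT replicate 4, EMBRYO TM replicate 2 or 3, L4 CNT replicate 4 or L4 TM replicate 1. For linc-9, EMBRYO TM measured 7.94, 9.72, 9.86 and 6.18 FPKM against 6.49, 6.90, 7.69 and 6.15 in EMBRYO CNT, which overlapped. It measured 14.4, 17.5, 19.2 and 16.1 FPKM in L4 TM against 19.8, 20.1, 20.8 and 21.8 in L4 CNT, all lower. For rncs-1 the interaction was 1.16 with a 95% interval of 0.22 to 2.11 (limma adjusted p 0.0615), so the larger L4 drop was not shown to differ from the embryo-stage value. The rncs-1 interaction was 1.15 (limma adjusted p 0.00230) without EMBRYO TM replicate 4, L4 TM replicate 4 and L4 CNT replicate 2 together. It was 1.43 (limma adjusted p 0.0158) without L4 CNT replicate 2 alone, 1.31 without EMBRYO CNT replicate 3 and 1.33 without L4 TM replicate 1. Its limma adjusted p ranged from 0.00230 to 0.121 over all alternatives run. F31E9.11 was called at -1.28 (limma adjusted p 0.0242) without EMBRYO TM replicate 4, and had -0.77 (limma adjusted p 0.364) with it. Y53F4B.45 had an interaction of 0.22 with a 95% interval of -0.19 to 0.63.

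**Figure D3:**
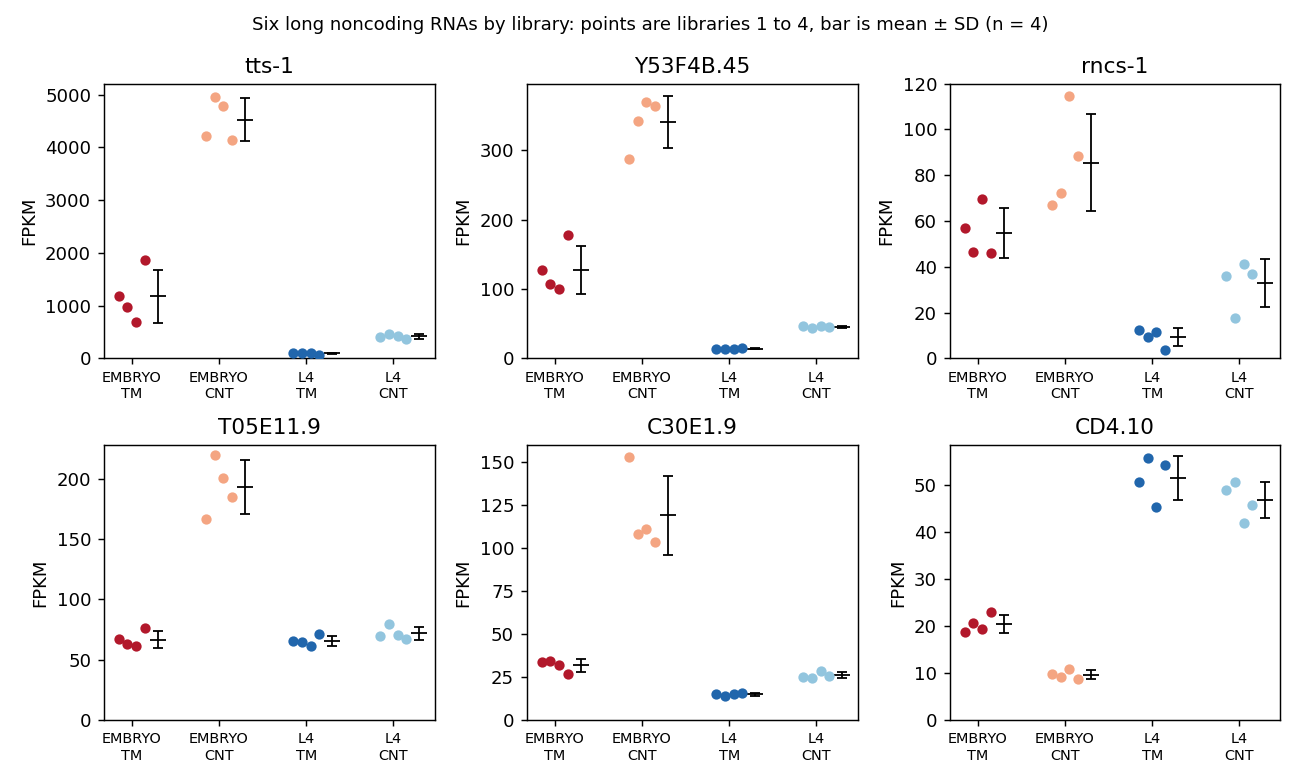
FPKM of 6 long noncoding RNAs on linear axes that start at 0. Coloured points are the 4 libraries of each group and the black bars are the mean ± SD. tts-1 and Y53F4B.45 were lower with tunicamycin at both stages, T05E11.9 was lower after embryo treatment (60.9 to 76.0 FPKM against 167 to 220) but not separated at L4, and CD4.10 was lowest in EMBRYO CNT.

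More of the RNAs were called between the 2 control groups than between tunicamycin and control. The controls belong to the 2 treatment schedules, so the stage at which worms were handled and the time from then to collection cannot be told apart. Whether the 2 control groups were of the same age at collection was not tested. In EMBRYO CNT against L4 CNT, 19 RNAs could be tested, and 10 were called higher and 3 lower. Among all 9453 genes at that level, 17.4% were called higher and 19.6% lower. The median log2 difference was 1.28 over the 19 RNAs and -0.35 over the 9453 genes. Of the RNAs called higher, R166.6, W06H8.5 and F57A8.9 lie in annotated 3′ untranslated regions of coding genes. Those genes, mnk-1, W06H8.6 and F57A8.1, differed by 1.74, 2.54 and 2.30. Reads of these genes may be counted in the noncoding rows, which was not tested. Rescaling the libraries to TPM moved the median of all tested genes in this comparison by more than 0.1, to 0.25 from 0.08 as deposited. It left the counts at 10 and 3. Median-ratio rescaling moved that median the other way, to -0.05. For all 13 the groups did not overlap (10 higher and 3 lower, against 30.2% and 51.6% of all genes). EMBRYO CNT and L4 CNT are also the controls of the tunicamycin comparisons above, so these values share libraries with them.

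The largest increase in EMBRYO CNT was that of tts-1, 3.44 (SE 0.10, limma adjusted p 3.56e-09), with a mean of 4527 ± 404 FPKM in EMBRYO CNT and 417 ± 45.5 in L4 CNT (SD, n = 4 each). Y53F4B.45 followed at 2.87 (SE 0.08, limma adjusted p 3.29e-09). tts-2 had 35.8, 37.2, 31.2 and 32.2 FPKM in EMBRYO CNT, against 6.01, 8.57, 6.80 and 6.24 in L4 CNT, a difference of 2.16. C30E1.9 differed by 2.15, W06H8.5 by 1.94, F57A8.9 by 1.91, T05E11.9 by 1.41, rncs-1 by 1.38, C05D2.11 by 1.31 and R166.6 by 1.28. Muscle markers, at 1971 to 2409 FPKM in EMBRYO CNT against 247 to 281 in L4 CNT, and moulting markers, at 116 to 128 FPKM against 50.4 to 56.6, were also higher in EMBRYO CNT. Sperm markers (782 to 889 FPKM against 602 to 729) and early embryo markers (5.14 to 6.44 against 2.97 to 3.43) were higher in EMBRYO CNT too, without overlap. Intestine markers (393 to 422 FPKM against 605 to 764), adult epidermis and yolk markers (4794 to 6534 against 17132 to 21222) and oocyte markers (3068 to 4361 against 4684 to 5549) were lower there without overlap. Neuron markers overlapped, at 202 to 240 FPKM against 212 to 268.

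The 3 lower RNAs were CD4.10 at -2.18, ZK822.8 at -1.76 and linc-9 at -1.47. CD4.10 had 8.61 to 10.8 FPKM in EMBRYO CNT against 41.9 to 50.5 in L4 CNT (SE 0.09, limma adjusted p 1.82e-08). ZK822.8, annotated as antisense to ZK822.1, had 2.31, 2.30, 1.14 and 1.27 FPKM in EMBRYO CNT, against 8.66, 9.96, 8.31 and 6.15 in L4 CNT, which is 5 to 10 reads against 29 to 54. Y105E8A.36 had close levels in the 4 groups, at 23.1 ± 4.30 FPKM in EMBRYO TM, 23.3 ± 4.01 in EMBRYO CNT, 25.9 ± 1.96 in L4 TM and 27.3 ± 5.85 in L4 CNT (SD, n = 4 each), and all 4 groups overlapped. F32A5.9, at 13.4 to 26.1 FPKM, and Y41C4A.29, at 7.49 to 19.2 FPKM, were not called in any comparison either.

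Among the RNAs without a test, rpr-1 averaged 7.73 FPKM in EMBRYO CNT and 0.0575 in L4 CNT, where a single read was seen in the 4 libraries. F41E7.20 averaged 6.01 FPKM in EMBRYO CNT and 0.227 in L4 CNT. linc-11 averaged 5.39 and srpr-2.2 2.65 FPKM in EMBRYO CNT, with 1.21 and 0.522 in L4 CNT, and linc-7 averaged 2.33 in EMBRYO CNT and 6.13 in L4 CNT. The group in which each of these is high is what let rpr-1, F41E7.20, linc-11 and linc-7 meet the 5 FPKM rule, and srpr-2.2 met it through a single EMBRYO TM library, so these values are a description. linc-8, at 1.74 to 5.92 FPKM in EMBRYO TM, 4.51 to 5.17 in EMBRYO CNT, 3.34 to 9.40 in L4 TM and 3.22 to 7.26 in L4 CNT, overlapped in each of the 3 comparisons.

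Of the 25, 10 share bases with the span of a coding gene in WBcel235, 40.0% against 41.9% of 1543 other candidates that could be placed, and 5 share exonic bases. R166.6 lies entirely, 1791 bases, in the 3′ untranslated region of mnk-1, a MAP kinase-interacting kinase gene, on the same strand. W06H8.5 lies entirely, 2525 bases, in that of W06H8.6, and F53H2.4 shares 397 of its 402 bases with that of F53H2.3, both on the same strand. F57A8.9 lies entirely in the 3′ untranslated region of F57A8.1 on the opposite strand. In the deposited table these coding genes have shorter spans that stop outside the noncoding rows, apart from 6 bases shared by mnk-1 and R166.6. The sources used here do not give whether libraries and counting kept strand, so reads from both partners of F57A8.9 and F57A8.1, and of ZK822.8 and ZK822.1, may be counted together. For the same-strand rows, reads from a longer coding transcript would be counted in the noncoding row.

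R166.6 had a lower mean level per length than mnk-1 in every group, by more in the embryo-stage groups. R166.6 averaged 102 FPKM in EMBRYO TM and 189 in EMBRYO CNT, and 53.5 in L4 TM and 76.6 in L4 CNT. mnk-1 averaged 154 FPKM in EMBRYO TM and 263 in EMBRYO CNT, and 61.7 in L4 TM and 78.0 in L4 CNT. The ratio of R166.6 to mnk-1 stayed between 0.560 and 1.21 over the 16 libraries. It was 0.560 to 0.876 in the embryo-stage groups and 0.801 to 1.21 in the L4-stage groups. Between controls the log2 difference was 1.28 for R166.6 and 1.74 for mnk-1. The tunicamycin differences of R166.6 were -0.90 after embryo treatment and -0.51 at L4, and those of mnk-1 were -0.83 and -0.33.

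W06H8.5 averaged 99.3 FPKM in EMBRYO TM and 170 in EMBRYO CNT, and 30.1 in L4 TM and 43.8 in L4 CNT. W06H8.6 averaged 116 FPKM in EMBRYO TM and 196 in EMBRYO CNT, and 25.8 in L4 TM and 32.9 in L4 CNT, for ratios between 0.742 and 1.76. After embryo treatment the log2 difference was -0.80 for both. The ratio was 0.742 to 0.995 in the embryo-stage groups and 1.09 to 1.76 in the L4-stage groups. Between controls the difference was 1.94 for W06H8.5 and 2.54 for W06H8.6. F57A8.9 averaged 35.4 FPKM in EMBRYO TM and 78.0 in EMBRYO CNT, beside 32.1 and 61.6 for F57A8.1, whose own difference was -0.94 (SE 0.15, limma adjusted p 0.000698). At L4, F57A8.9 averaged 16.3 FPKM in L4 TM and 20.3 in L4 CNT, beside 7.97 and 11.7 for F57A8.1. The ratio of that pair was 0.852 to 6.20, with the highest value in L4 TM replicate 4 (30.5 FPKM of F57A8.9).

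In the other 2 pairs the RNA had its highest mean in L4 CNT and the coding gene in EMBRYO CNT. The ratio of F53H2.4 to F53H2.3 was 0.268 to 1.06. Tunicamycin differences of F53H2.4 were -0.25 after embryo treatment and -0.31 at L4, and those of F53H2.3 were -0.10 and -0.16. F53H2.4 ran from 12.2 to 21.5 FPKM in EMBRYO TM and from 14.5 to 23.3 in EMBRYO CNT, and from 15.7 to 19.4 in L4 TM and from 17.2 to 28.4 in L4 CNT. F53H2.3 averaged 41.7 FPKM in EMBRYO TM and 44.4 in EMBRYO CNT, and 29.9 in L4 TM and 33.5 in L4 CNT. ZK822.8 shares 170 bases with coding exons of ZK822.1, which stayed at 0.564 to 1.58 FPKM, while ZK822.8 averaged 2.79 FPKM in EMBRYO TM and 1.75 in EMBRYO CNT, and 7.88 in L4 TM and 8.27 in L4 CNT. The control-group difference of -1.76 in ZK822.8 stands beside 0.03 (SE 0.16) in ZK822.1.

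**Figure D4:**
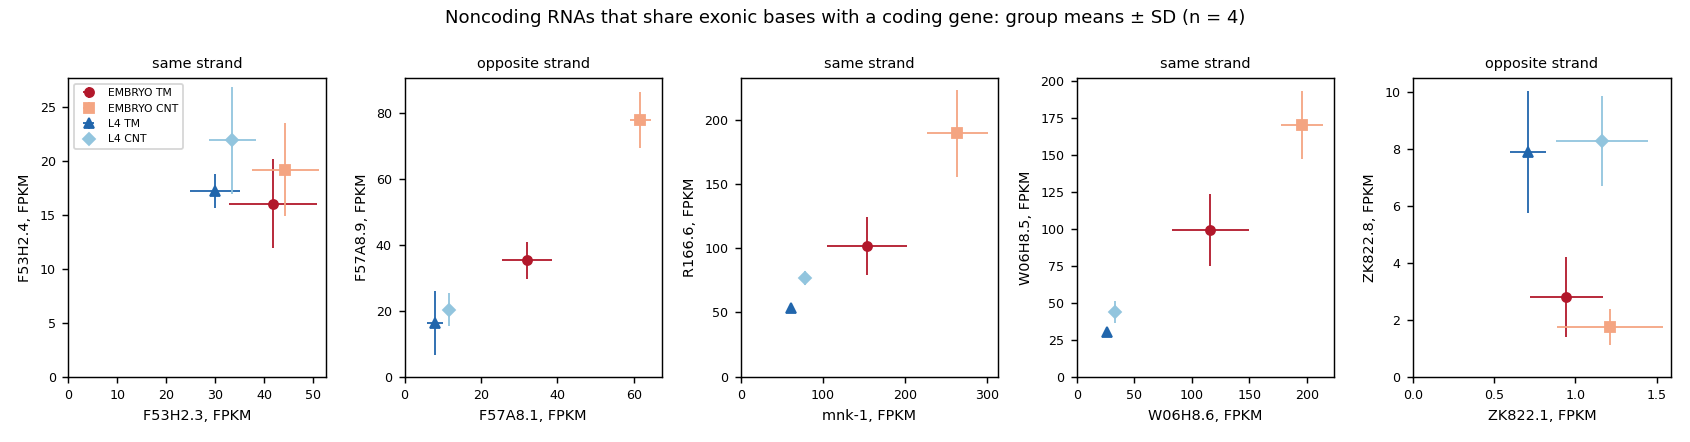
Mean FPKM of 5 noncoding RNAs (vertical axes) against that of the coding gene whose exons they share (horizontal axes), for 4 groups, with bars of 1 SD over 4 libraries. For R166.6, W06H8.5 and F57A8.9 both partners were highest in EMBRYO CNT, then EMBRYO TM, then the L4 groups, while F53H2.4 and ZK822.8 had their highest mean in L4 CNT and their partners in EMBRYO CNT.

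RNAs inside a coding gene but sharing no exonic base varied in how far they moved with it. C05D2.11 and daf-4 both had lower levels in EMBRYO TM, by 0.72 and 0.48 on the log2 scale (limma adjusted p 0.000129 and 0.00212). Both were higher in EMBRYO CNT than in L4 CNT, by 1.31 and 0.94, and the interaction was -0.52 for each. C05D2.11 lies within the daf-4 span on the same strand, so reads from daf-4 RNA not yet spliced would be counted in it. The part of such reads was not tested. rpr-1, opposite to ints-8, a gene of the Integrator complex that processes small nuclear RNAs, had its highest mean in EMBRYO CNT, while ints-8 ran from 11.1 to 16.7 FPKM in EMBRYO TM and from 9.03 to 12.9 in EMBRYO CNT. linc-7, opposite to C09G1.4, averaged 8.08 FPKM in L4 TM and 6.13 in L4 CNT, a difference of 0.30 with a 95% interval of -0.16 to 0.76.

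Of 6 noncoding RNAs with a studied role that were listed, tts-1, rncs-1 and rpr-1 are among the 25. lep-5, a regulator of developmental timing, is listed as protein coding in the table and so was not selected, with 209 to 361 FPKM in EMBRYO TM, 330 to 427 in EMBRYO CNT, 89.0 to 102 in L4 TM and 113 to 136 in L4 CNT. linc-73 reached at most 0.146 FPKM, and mrpr-1, at 186 bases, is under the length minimum and reached at most 1.51 FPKM.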

How the data were processed

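RNA-seq was done on 16 libraries of whole worms, 4 in each of 4 groups defined by the sample labels. Per the labels, the authors' processing named HISAT2 2.0.5, featureCounts 1.5.0-p3, StringTie 1.3.3b, DESeq2 and edgeR 3.22.5, and the deposited values are FPKM per gene. The authors' group means were used only in the form recomputed from the 4 libraries. The table was not filtered here before the 25 RNAs were chosen, and they and all gene lists were chosen with earlier results of these data known. Every FPKM times length was a whole multiple of the smallest such value in its library (100% within 0.01), which gave reads per gene; intervals and floors from them cover counting error only. Positions and coding partners were compared with WBcel235.

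Tests were limma 3.58.1 (R 4.3.3) with a mean-variance trend on log2(FPKM + 1), two-sided, with Benjamini-Hochberg adjustment over all genes averaging at least 1 FPKM over the libraries compared; such log2 differences understate changes of low genes. Genes named were those with a studied role, up to 6 called in each direction of each comparison without overlap (up to 4 without a test), the 8 most abundant, 3 on either side of the 5 FPKM rule, and coding partners; the remaining RNAs and nearest genes were added after their values were seen. The plates are the replicates, and the sources used here do not give whether each was treated separately. Alternatives were pseudocounts of 0.1 and 5, no filter and a filter of 5 FPKM, median-ratio and TPM rescaling, a replicate block, 1 model for 16 libraries, limma voom, adjusted p alone, and each library left out. Tables were processed with Python 3.11.15, and the fit was tested on simulated data.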

Additional observations from a re-analysis of the deposited data

Results flagged for a closer look

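In a group of 4 libraries, a library was singled out when its gap to the nearest other, as a share of the group's range, exceeded Dixon's 95% critical value, which chance does in about 1 of 20 groups; 12 of 99 groups of the 25 RNAs did so. L4 TM replicate 4 accounted for 5. It was far above the rest for linc-15 (16.2 FPKM), linc-8 (9.40), Y41C4A.29 (19.2) and W06H8.5 (32.3), and far below for C05D2.11 (1.80). L4 CNT replicate 2 was far above the rest for linc-15 (22.1 FPKM) and W06H8.5 (54.7), and EMBRYO TM replicate 4 for F31E9.11 (9.80). The remaining values were srpr-2.2 in EMBRYO TM replicate 1 (20.2 FPKM), C30E1.9 in EMBRYO CNT replicate 1 (153), rpr-1 in EMBRYO TM replicate 4 (0.428, 2 reads) and rpr-1 in L4 CNT replicate 3 (0.230, 1 read).

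The tunicamycin effect differed between the stages by the interaction test for T05E11.9 (-1.39), C30E1.9 (-1.10), CD4.10 (0.88), tts-2 (0.59) and linc-9 (0.54), each with a limma adjusted p under 0.05, which reached 0.0997 for tts-2 and 0.0632 for linc-9 among the alternatives.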

How the results depend on the processing

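By adjusted p alone the RNAs lower in EMBRYO TM numbered 10, those lower in L4 TM 9, and those with a positive interaction 3. The 1 RNA higher in EMBRYO TM, CD4.10, left 0 with a pseudocount of 5 (0.80) and with TPM rescaling (0.97). Leaving out single libraries gave 0 to 1 higher and 5 to 7 lower in EMBRYO TM, 0 higher and 3 to 4 lower in L4 TM, 10 higher and 3 lower in EMBRYO CNT against L4 CNT, and 0 to 1 higher and 1 to 3 lower for the interaction. The interaction count of 0 higher became 1 (rncs-1) with limma voom, with the replicate block, and without EMBRYO TM replicate 4, L4 TM replicate 4 and L4 CNT replicate 2 together, an alternative chosen after seeing the data. With a pseudocount of 5, C05D2.11 at 0.86 and ZK822.8 at -0.97 lost the call between controls. F31E9.11 was called lower in EMBRYO TM by voom (-1.23) and in 1 model of 16 libraries (-1.04). The cause of these changes was not tested. In 38 results with an adjusted p under 0.05, all 695 alternative values kept their sign, while rncs-1 in EMBRYO TM lost its adjusted p with 1 model of 16 libraries (0.105), and at L4 linc-15 with the block (0.0583) and voom (0.0675), and linc-9 with the block (0.0725), no filter (0.0546) and 1 model (0.0778).

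Deviations of same-numbered libraries correlated from -0.16 to 0.08 between EMBRYO TM and EMBRYO CNT and from -0.33 to 0.23 between L4 TM and L4 CNT. L4 TM replicates 1 and 3 correlated best with the control of the same number (0.23 and 0.21). L4 TM replicates 2 and 4 and every EMBRYO TM replicate did so with another number. With 4 libraries a group this cannot show whether same-numbered libraries were paired. The replicate block left 5 lower and 1 higher in EMBRYO TM, 3 and 0 in L4 TM, 10 higher and 3 lower between controls, and 2 lower and 1 higher for the interaction. Depth limits rpr-1, F41E7.20, srpr-2.2, ZK822.8 and F31E9.11 most, at under 10 reads in several libraries.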
